A study of Mus musculus with 18 samples.

Results

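C2C12 cells, an established line of mouse myoblasts, were compared after 30 min and after 3 min in trypsin, using all genes of the 3 libraries at each time. These 6 libraries were taken from 18 in the whole series. Per the labels, both groups were grown in 6-well plates with 20% fetal bovine serum, washed with PBS, covered with 200 µL of 0.25% trypsin at 37 °C, resuspended and lysed. The 30 min and 3 min cells therefore shared the enzyme, its dose, the wash and the harvest, and differed in the length of the incubation. A group kept 30 s in trypsin and a control group, lysed in the plate and scraped, are shown where they place the levels of both times. The RNA was read by BRB-seq, a bulk method that barcodes each sample's cDNA before pooling and counts reads mainly near the poly(A) ends of mRNAs. The libraries of a group are numbered as lots, and the labels do not say what a lot is. The p-values cover no more than the scatter of these libraries and that scatter may be technical.

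Trypsin is a serine protease that cuts after lysine and arginine. It cleaves adhesion molecules and matrix on the cell surface, so that adherent cells round up and come off the plate. It can also activate protease-activated receptors, and loss of attachment changes signalling through integrins, actin and YAP. Several pathways that answer within minutes to an hour are known to do so by transcription: immediate early genes downstream of MAP kinases, chemokine genes downstream of NF-kB, Notch targets such as Hes1, and the integrated stress response, in which translation and transcription of Atf4 lead to genes such as Ddit3 and Chac1.

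The 30 min libraries held 1608020 to 1884759 counts and the 3 min libraries 1490869 to 1778662 counts, with 13827 to 14480 and 13942 to 14451 genes detected. Levels are in CPM, the share of a library's counts that a gene takes, scaled by the TMM method. The floor, the CPM value of 3 counts, was 1.59 to 1.87 in the 30 min libraries and 1.69 to 2.01 in the 3 min libraries. Floors cover counting error only. The first principal component of the 6 libraries held 29.7% of the variance, with the 30 min libraries at 9.29 to 17.4 and the 3 min libraries at -17.3 to -12.0. Of the myoblast genes looked at, Vim, Des, Cdh15, Myf5 and Myod1 were present at both times. The filament genes Vim and Des averaged 9598 ± 126 and 913 ± 37 CPM after 30 min, against 10195 ± 138 and 926 ± 10.3 CPM after 3 min (SD, n = 3 each), while Myod1 was at 58.8 ± 7.0 against 62.3 ± 5.7 CPM. The satellite cell gene Pax7 and the myoblast gene Msc had means below the floor at both times. Of 23 defining genes of other cell types, with the widely expressed Tubb3 left aside, 20 were in the table and 6 had no count in any of the 6 libraries. The 20 summed to 4.41 to 7.86 CPM after 30 min, against 7.37 to 14.2 CPM after 3 min. In bulk libraries, fewer cells of a type and less of an RNA per cell cannot be told apart.

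Between 30 min and 3 min, 285 of 10075 tested genes were higher and 121 were lower at 30 min (edgeR quasi-likelihood test, Benjamini-Hochberg adjusted p under 0.05). These are 2.83% and 1.20% of the genes tested, 4.03% in either direction. With library totals in place of TMM scaling the split was 260 higher and 176 lower. The sizes of rises and falls given below are log2 fold changes of 30 min over 3 min, and a value after ± is the SE of the fit unless an SD is named. Most differences were small: 33 of the genes that rose and 11 of those that fell passed a 2-fold change. The libraries of both groups did not overlap for 284 of the 285 and 112 of the 121, against 17.7% of all genes tested. The coding genes that rose numbered 248, beside 17 lncRNAs and 20 pseudogenes. The coding genes that fell numbered 112. Because some transcripts resemble others closely, genes whose last 1000 transcript bases match another gene at 95% identity or more are called copied here, and their counts are uncertain. They were 91 of the 285 and 37 of the 121. In all 6 fits that each left out 1 of the libraries, 189 of the genes that rose and 36 of those that fell were called again.

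**Figure D1:**
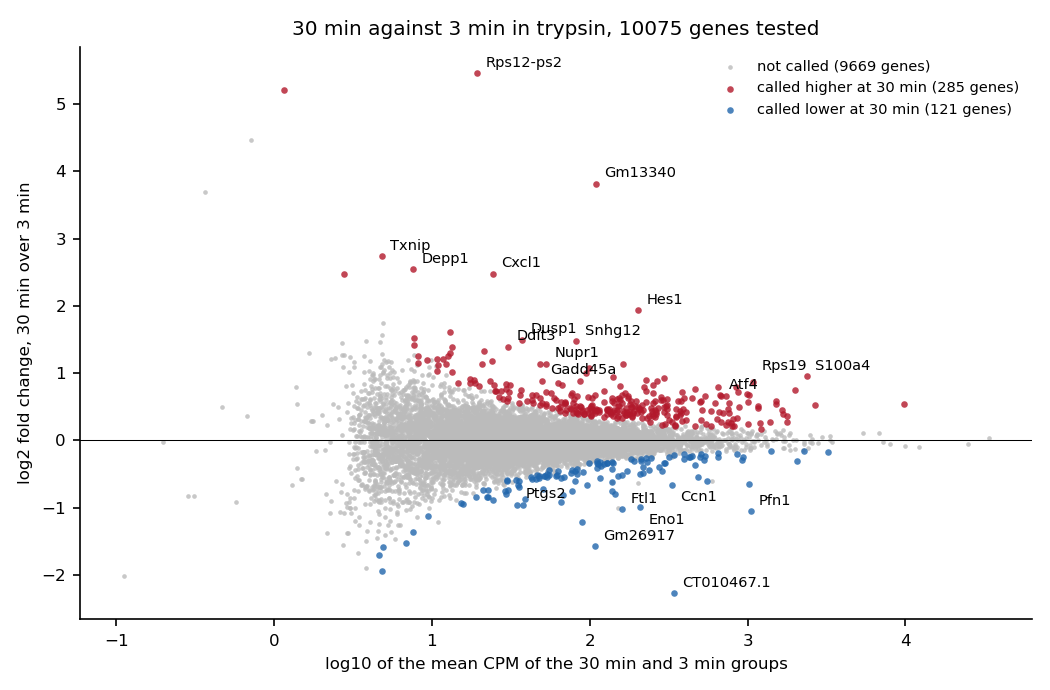
Log2 fold change of 30 min over 3 min (vertical axis) against the log10 of the mean CPM of both groups (horizontal axis) for 10075 genes. Red points are the 285 genes called higher at 30 min, blue points the 121 called lower and grey points the rest. Hes1 and Cxcl1 stand above the other named coding genes of similar level, and the pseudogenes Rps12-ps2 and Gm13340 above them.

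The clearest rise in a regulator was that of Hes1, a transcriptional repressor that Notch signalling switches on and that restrains myogenic differentiation. Hes1 (ENSMUSG00000022528, 4 exons, chr16:30064384-30067796, + strand, GRCm38) stood at 332, 335 and 291 CPM after 30 min, against 75.4, 84.2 and 92.5 CPM after 3 min. Every 30 min library was above every 3 min library by a wide margin, with a log2 fold change of 1.93 ± 0.10 (SE, edgeR adjusted p = 5.48e-22). Over the time course the mean Hes1 level was 52.8 CPM in scraped cells, 84.7 CPM at 30 s, 84.0 CPM at 3 min and 320 CPM at 30 min. Of 24 tested genes of the Notch pathway, taken from a list of 34, 2 were called, both higher. That is 8.33%, against 2.83% of all genes tested. The median log2 fold change was 0.01, against -0.0042 over all genes tested. With single libraries left out that median ran from -0.04 to 0.04. The other called member was Notch2, a receptor, at 247, 283 and 235 CPM after 30 min, against 204, 197 and 209 CPM after 3 min. Its log2 fold change was 0.33 ± 0.08 (SE, edgeR adjusted p = 0.0075), and the call was lost in 2 of the 6 fits that left out a library. Notch3, another receptor, had a log2 fold change of 0.60 ± 0.20 (SE, edgeR adjusted p = 0.0861). The ligand Jag1, the DNA-binding partner Rbpj and the protease Adam10, which cuts Notch at the surface, had log2 fold changes of 0.27, 0.04 and 0.08 and were not called. Heyl, another target gene of the pathway, had a log2 fold change of 0.56 and was not called.

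Among chemokine and NF-kB genes, Cxcl1 rose and Ptgs2 fell, and these were the 2 called of 23 tested. That is 4.35% each way, against 2.83% higher and 1.20% lower of all genes tested. Cxcl1, which attracts neutrophils, was at 43.4, 40.4 and 40.3 CPM after 30 min, against 4.12, 11.5 and 6.03 CPM after 3 min. The groups did not overlap, and the log2 fold change was 2.48 ± 0.26 (SE, edgeR adjusted p = 1.27e-10). Its mean was 6.13 CPM in scraped cells and 7.12 CPM at 30 s. Ptgs2, the inducible cyclooxygenase that starts prostaglandin synthesis, was at 18.2, 25.7 and 27.1 CPM after 30 min, against 45.3, 53 and 38.9 CPM after 3 min. All 30 min libraries were lower, with a log2 fold change of -0.95 ± 0.18 (SE, edgeR adjusted p = 0.00012). The related chemokine gene Cxcl5 was at 10.1, 11.5 and 20.2 CPM after 30 min, against 4.12, 7.10 and 6.70 CPM after 3 min (log2 1.20 ± 0.38, edgeR adjusted p = 0.0609). Nfkbia, the inhibitor that NF-kB itself induces, had a log2 fold change of 0.26 and Ccl2 of -0.13, and neither was called. The median over the 23 was -0.04, and -0.07 to 0.02 with single libraries left out.

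Txnip and Depp1, both near the floor after 3 min, rose. Txnip, an arrestin-family protein that binds thioredoxin and restrains glucose uptake, was at 12.6, 4.72 and 8.20 CPM after 30 min, against 1.77, 1.09 and 0.67 CPM after 3 min, where every library was under its floor. The groups did not overlap, and the log2 fold change of 2.73 ± 0.60 (SE, edgeR adjusted p = 0.00165) rests on few counts in the 3 min libraries; DESeq2 gave Txnip no adjusted p. Depp1, which FoxO factors are known to induce, was at 13.2, 15.7 and 10.1 CPM after 30 min, against 1.77, 2.19 and 2.68 CPM after 3 min (log2 2.54 ± 0.43, edgeR adjusted p = 2.34e-05). Its lowest 30 min library was well above its highest 3 min library. Among 15 tested genes of the FoxO and arrestin-domain list Txnip was the sole call, 6.67% against 2.83% of all genes tested. The median of the list was 0.24, or 0.14 without 30 min replicate 2. Foxo3, Fbxo32 and Arrdc2 of that list had log2 fold changes of 0.55, 0.49 and 0.63 and were not called.

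The 250 bases before the start site are shown for the 4 called rises with the largest fold that had an entry in the RefSeq promoter table (GRCm38.p6), because the rises of Cxcl1, Txnip and Depp1 were the largest in coding genes named here. Each runs 5′ to 3′ on the gene's own strand and ends at the base before the start. Capitals mark matches, on either strand, to 1 of 7 motifs searched.
Cxcl1, chr5:90890995-90891244, + strand: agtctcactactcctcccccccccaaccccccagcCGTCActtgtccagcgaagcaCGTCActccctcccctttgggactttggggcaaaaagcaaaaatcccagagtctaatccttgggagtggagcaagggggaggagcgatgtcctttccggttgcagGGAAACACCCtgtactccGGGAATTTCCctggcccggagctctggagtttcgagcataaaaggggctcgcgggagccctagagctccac
Txnip, chr3:96557707-96557956, + strand: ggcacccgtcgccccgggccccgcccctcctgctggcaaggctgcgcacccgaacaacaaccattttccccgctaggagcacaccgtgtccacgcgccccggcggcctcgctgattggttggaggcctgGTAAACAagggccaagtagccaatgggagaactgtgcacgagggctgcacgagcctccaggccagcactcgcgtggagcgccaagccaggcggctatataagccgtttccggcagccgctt
Depp1, chr6:116650434-116650683, + strand: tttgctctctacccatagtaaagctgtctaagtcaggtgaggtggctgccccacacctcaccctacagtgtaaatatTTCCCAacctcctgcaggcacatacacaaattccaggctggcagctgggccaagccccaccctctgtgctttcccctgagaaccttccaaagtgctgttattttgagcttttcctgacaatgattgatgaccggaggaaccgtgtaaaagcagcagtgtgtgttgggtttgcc
Sulf2, chr2:166155684-166155933, - strand: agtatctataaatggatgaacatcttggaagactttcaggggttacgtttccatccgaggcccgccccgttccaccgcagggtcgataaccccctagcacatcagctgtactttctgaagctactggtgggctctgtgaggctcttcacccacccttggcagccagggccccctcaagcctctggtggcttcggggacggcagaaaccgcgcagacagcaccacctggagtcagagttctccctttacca
In Cxcl1 the capitals near the end are 2 matches to a kappa B motif, the binding motif of NF-kB, 1 on each strand, found in 1.40% of 27025 promoter entries of the same length, and the earlier ones are 2 matches to the CRE core TGACG, found in 17.9%. In Txnip they mark a match to the FoxO letters TGTTTAC, which 3.09% of entries hold. In Depp1 they mark TGGGAA, the core that the Notch partner RBPJ recognises, which 21.5% of entries hold. Sulf2 held none of the motifs. The others searched were the E-box CACGTG (6.05% of entries), AP-1 TGANTCA (6.87%) and the C/EBP-ATF letters TGATGNAA (3.53%). A match describes the letters and is not evidence of a bound site. Sulf2, a sulfatase that edits heparan sulfate at the cell surface, was at 13.8, 13.1 and 7.57 CPM after 30 min, against 3.53, 6.01 and 2.01 CPM after 3 min. Its log2 fold change was 1.53 ± 0.39 (SE, edgeR adjusted p = 0.00991), and the call was lost in 4 of the 6 fits that left out a library, the largest adjusted p being 0.0871 without 3 min replicate 3.

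The immediate early genes went both ways. Of 25 tested, Egr1 and Klf6 were called higher, and Ier2, Junb and Fosl1 were called lower. The shares were 8% and 12%, against 2.83% and 1.20% of all genes tested. The median log2 fold change was 0.01, or -0.03 to 0.05 with single libraries left out. Egr1, a zinc-finger factor induced by MAP kinases, was at 128, 126 and 102 CPM after 30 min, against 96.6, 77.1 and 88.5 CPM after 3 min (log2 0.45 ± 0.12, edgeR adjusted p = 0.0116). Klf6 was at 276, 264 and 264 CPM after 30 min, against 206, 215 and 201 CPM after 3 min (log2 0.37 ± 0.07, edgeR adjusted p = 0.000214). Ier2 was at 50.9, 59.8 and 56.7 CPM after 30 min, against 86.6, 67.8 and 92.5 CPM after 3 min (log2 -0.55 ± 0.13, edgeR adjusted p = 0.0071). The groups of these 3 genes did not overlap, whereas those of Junb did, at 181 to 236 CPM after 30 min and 235 to 272 CPM after 3 min. Junb and Fosl1 each had a log2 fold change of -0.33. Of the 5 calls, Klf6 alone was made in every fit that left out a library. Jun and Myc had log2 fold changes of -0.02 and -0.29 and were not called.

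Of 20 feedback genes of the MAP kinase pathway 2 were called, 1 higher and 1 lower. That is 5% each way, against 2.83% and 1.20% of all genes tested. Dusp1, a phosphatase that switches off p38 and JNK, was at 66.0, 47.7 and 51.7 CPM after 30 min, against 20.0, 16.4 and 22.1 CPM after 3 min. The groups were far apart, with a log2 fold change of 1.5 ± 0.21 (SE, edgeR adjusted p = 3.79e-07). Dusp1 overlaps Ergic1 on the other strand, and the sources used here do not give the strand setting of the counts. Junb, Sulf2 and Bccip likewise overlap the more abundant Prdx2, Ncoa3 and Dhx32, in that order, on opposite strands. Errfi1, an inhibitor of the EGF receptor, was at 93.7, 105 and 99.6 CPM after 30 min, against 113, 140 and 126 CPM after 3 min. That fall, of 0.35 on the log2 scale (SE 0.10, edgeR adjusted p = 0.0399), was lost in 5 of the 6 fits that left out a library. Among 19 growth-restraining genes, Gadd45a and Gadd45g, stress sensors that act on MAP kinases and the cell cycle, were called. Both were higher, which is 10.5% of that list, against 2.83% of all genes tested. Gadd45a was at 70.4, 57.1 and 67.5 CPM after 30 min, against 34.7, 35.5 and 34.2 CPM after 3 min (log2 0.89 ± 0.15, edgeR adjusted p = 3.71e-05). Gadd45g was at 248, 235 and 240 CPM after 30 min, against 177, 180 and 164 CPM after 3 min (log2 0.47 ± 0.08, edgeR adjusted p = 1.22e-05). Neither gene's groups overlapped. Cdkn1a, the p53 target that halts the cycle, had a log2 fold change of 0.14 ± 0.07 (SE, edgeR adjusted p = 0.382).

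**Figure D2:**
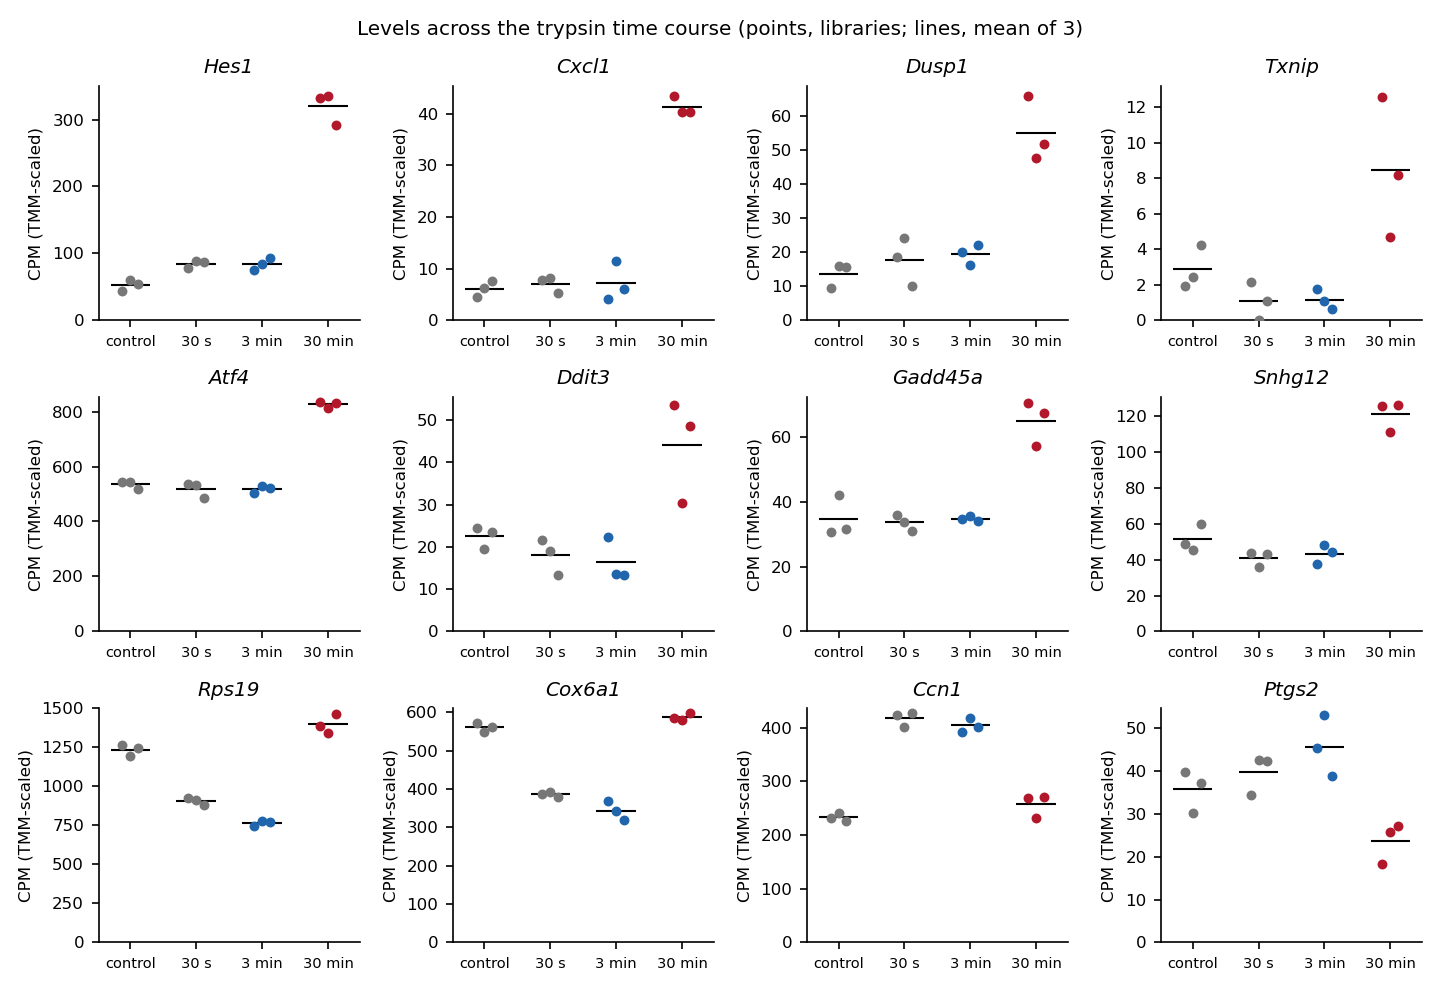
Level of 12 genes in CPM (vertical axes, starting at 0) in each library of scraped control cells and of cells kept 30 s, 3 min and 30 min in trypsin. Points are libraries and lines the mean of 3; the red 30 min points lie above the blue 3 min points in the first 10 panels and below them for Ccn1 and Ptgs2.

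The Atf4 branch of the integrated stress response held several of the clearest rises. Of 32 tested, 7 were called, all higher, which is 21.9% against 2.83% of all genes tested, and the median log2 fold change was 0.16. At an unadjusted p under 0.05, 11 were higher and 1 lower, and DESeq2 called 6 higher and 0 lower of 31. Atf4 itself (chr15:80255184-80257541, + strand), the transcription factor of the branch, was at 835, 811 and 830 CPM after 30 min, against 504, 527 and 521 CPM after 3 min. The libraries of each group lay close together and far from the other group, with a log2 fold change of 0.67 ± 0.05 (SE, edgeR adjusted p = 3.51e-14). Atf4 had averaged 536 CPM in scraped cells and 518 CPM at 30 s.

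The Atf4 target Ddit3, also known as Chop, was at 53.4, 30.4 and 48.5 CPM after 30 min, against 22.4, 13.7 and 13.4 CPM after 3 min (log2 1.40 ± 0.22, edgeR adjusted p = 5.16e-06). Chac1, which degrades glutathione, was at 15.1, 24.1 and 16.4 CPM after 30 min, against 5.89, 9.29 and 7.37 CPM after 3 min (log2 1.30 ± 0.31, edgeR adjusted p = 0.00398; 0.0857 without 30 min replicate 2). Nupr1, a small stress-induced chromatin protein, was at 84.2, 65.5 and 70.0 CPM after 30 min, against 28.9, 37.7 and 32.2 CPM after 3 min (log2 1.14 ± 0.14, edgeR adjusted p = 3.01e-08). In these 3 genes no 30 min library was as low as a 3 min library. Ddit4, an inhibitor of mTOR signalling, was at 128, 116 and 94.6 CPM after 30 min, against 55.4, 72.1 and 54.3 CPM after 3 min (log2 0.89 ± 0.12, edgeR adjusted p = 4.31e-07). The amino acid transporter Slc38a2 and the cytokine Gdf15 rose by 0.30 and 0.53, and the Gdf15 call was lost in 5 of the 6 fits that left out a library. Ddit3 overlaps Mars, and the 2 lie on opposite strands. The amino acid synthesis genes Asns, Psat1 and Phgdh of the same list had log2 fold changes of 0.02, 0.01 and -0.83, and none was called. Summed over the list, these genes took 0.331% ± 0.007 of all counts after 30 min, against 0.270% ± 0.003 after 3 min (SD, n = 3 each), and the groups did not overlap.

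The chaperones of the endoplasmic reticulum, which the unfolded protein response controls through Atf6 and Xbp1, gave no call among 23 tested in edgeR or in DESeq2, with 2 higher and 1 lower at an unadjusted p under 0.05. Hspa5, the main chaperone of that compartment, had a log2 fold change of 0.18 ± 0.07 (SE, edgeR adjusted p = 0.161). The heat shock list was split, with 2 of 21 higher and 3 lower. The shares were 9.52% and 14.3%, against 2.83% and 1.20% of all genes tested. Hsph1 was at 155, 152 and 157 CPM after 30 min, against 127, 113 and 103 CPM after 3 min (log2 0.43 ± 0.10, edgeR adjusted p = 0.00212). Hspa8, the constitutive chaperone, was at 122, 98.5 and 95.8 CPM after 30 min, against 173, 179 and 196 CPM after 3 min (log2 -0.79 ± 0.09, edgeR adjusted p = 3.38e-09). Mean Hspa8 was 214 CPM in scraped cells and 128 CPM at 30 s. Neither gene's groups overlapped, and Hspa8 is a copied gene. The strongly inducible Hspa1b, also copied, had a log2 fold change of 0.17 ± 0.14 (SE, edgeR adjusted p = 0.674). Hspe1, the other called rise of the list, is copied and has a transcript of 774 nt. It rose by 0.34 on the log2 scale, a call lost in 2 of the 6 fits that left out a library.

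Long noncoding RNAs that host small nucleolar RNAs in their introns were prominent among the rises. Of 18 tested members of the lncRNA list 10 were called, all higher, which is 55.6% against 2.83% of all genes tested. The median log2 fold change was 0.62. That median was 0.82 over the 7 members whose transcripts do not exceed 800 nt and 0.44 over the other 11. At an unadjusted p under 0.05, 12 were higher and 2 lower, and DESeq2 called 9 higher and 0 lower. Snhg12 was at 126, 111 and 126 CPM after 30 min, against 37.7, 48.1 and 44.2 CPM after 3 min (log2 1.47 ± 0.13, edgeR adjusted p = 9.31e-13). Snhg1 was at 140, 138 and 125 CPM after 30 min, against 58.9, 62.8 and 69.0 CPM after 3 min (log2 1.08 ± 0.12, edgeR adjusted p = 5.41e-10). Zfas1 was at 189, 165 and 202 CPM after 30 min, against 92.5, 101 and 95.8 CPM after 3 min (log2 0.94 ± 0.10, edgeR adjusted p = 1.55e-10). In all 3 the lowest 30 min library was above the highest 3 min library. Snhg20, Epb41l4aos, Snhg15, Snhg5, Snhg17 and Gas5 rose by 1.33, 1.21, 0.82, 0.74, 0.72 and 0.62. The Epb41l4aos and Snhg17 calls were lost in 1 and 4 of the 6 fits that left out a library. The imprinted H19, which is not a snoRNA host, rose by 0.23, a call lost in 2 of them, and the nuclear-retained Malat1 and Neat1 had log2 fold changes of 0.12 and -0.43 and were not called.

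Cytosolic ribosomal protein mRNAs and nuclear-encoded respiratory chain mRNAs made up a large share of the genes that rose. Of 80 tested ribosomal protein genes 43 rose and 8 fell, with a median log2 fold change of 0.27. The shares were 53.8% and 10%, against 2.83% and 1.20% of all genes tested. Of the 80, 69 are copied, and the median without copied genes was 0.12. Rps19 was at 1387, 1339 and 1464 CPM after 30 min, against 747, 777 and 769 CPM after 3 min (log2 0.87 ± 0.05, edgeR adjusted p = 3.79e-20). Its level in scraped cells, 1193 to 1262 CPM, lay between those of both times. Rps24, which has no close copy by the rule above, was at 1215, 1231 and 1322 CPM after 30 min, against 793, 749 and 814 CPM after 3 min (log2 0.68 ± 0.05, edgeR adjusted p = 1.07e-15). Neither gene's groups overlapped. Rps6, the ribosomal protein that S6 kinase phosphorylates, went the other way, at 39.6, 48.2 and 49.8 CPM after 30 min, against 70.7, 101 and 88.5 CPM after 3 min (log2 -0.91 ± 0.14, edgeR adjusted p = 1.44e-06). Rps16 was not called, at 313, 298 and 293 CPM after 30 min, against 291, 306 and 304 CPM after 3 min (edgeR adjusted p = 0.993), in a gene at 522 to 561 CPM in scraped cells. Rps19, Rps6 and Rps16 are all copied. Mean Rps6 was 109 CPM in scraped cells and 54.2 CPM at 30 s. Together the 81 ribosomal protein genes took 6.55% of counts in scraped cells, 5.15% at 30 s, 5.03% at 3 min and 6.01% at 30 min, with SDs of 0.108, 0.020, 0.007 and 0.151 (n = 3 each).

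Of 76 nuclear genes for the respiratory chain and ATP synthase 36 rose and 2 fell, 47.4% and 2.63%, against 2.83% and 1.20% of all genes tested. Their median log2 fold change was 0.29, or 0.17 without copied genes and 0.04 over transcripts longer than 800 nt. Cox6a1, a subunit of cytochrome c oxidase, was at 586, 580 and 598 CPM after 30 min, against 369, 342 and 320 CPM after 3 min (log2 0.77 ± 0.06, edgeR adjusted p = 4.36e-15). Ndufa13, a subunit of complex I, was at 314, 313 and 335 CPM after 30 min, against 188, 172 and 181 CPM after 3 min (log2 0.83 ± 0.07, edgeR adjusted p = 3.53e-13). Both had been close to their 30 min levels in scraped cells, at 549 to 573 CPM for Cox6a1 and 299 to 314 CPM for Ndufa13. Cox8a, of the same oxidase, was at 199, 171 and 192 CPM after 30 min, against 159, 129 and 135 CPM after 3 min (log2 0.41 ± 0.09, edgeR adjusted p = 0.00187), and stayed below the 252 to 307 CPM of scraped cells. The 2 that fell were Sdhd, by 0.40, and Atp5c1, by 0.22 on the log2 scale, with edgeR adjusted p of 0.0338 and 0.0475, and each call was lost in 4 of the 6 fits that left out a library. Of 11 mitochondrially encoded mRNAs, mt-Co2 was called, at 217, 268 and 273 CPM after 30 min, against 176, 197 and 180 CPM after 3 min (log2 0.46 ± 0.08, edgeR adjusted p = 4.05e-05). By the rule above mt-Co2 is copied. As the single call it is 9.09% of its list, against 2.83% called higher of all genes tested. The abundant mt-Nd1 had a log2 fold change of -0.09 and was not called.

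Transcript length went with these rises. Among all tested coding genes, 298 have an annotated transcript of 800 nt or less, and 108 of them, 36.2%, rose, with a median log2 fold change of 0.29. Of 9420 with longer transcripts 140 rose, 1.49%, with a median of -0.01. The short genes were 43.5% of the coding genes that rose, 3.57% of those that fell and 3.07% of those tested. The pattern was also present outside both lists and without copied genes, where 53 of 162 short genes rose, 32.7%, against 94 of 8835 longer ones, 1.06%. Within the respiratory list the 34 short members had a median of 0.46, against 0.03 for the 42 longer members. Within the ribosomal list the 35 short members had 0.39 and the 45 longer ones 0.27. Each gene's length is that of 1 annotated transcript, for example 3706 nt for Rps20 and 1613 nt for Rps24. Which transcript of a gene was read was not tested, so a gene's class may differ from that of its main mRNA. Short coding transcripts outside both lists took 5.43% of counts in scraped cells, 4.26% at 30 s, 4.03% at 3 min and 5.02% at 30 min. The part of RNA size or recovery in these shares was not tested. The genes that rose without being short, copied or in those lists also spanned less of the genome, with a median of 7344 bp. All tested coding genes with longer transcripts, copied and listed ones included, had a median of 25955 bp, and the falls without copies 16052 bp. Those rises also had shorter transcripts than that comparison set, with medians of 2098.5 and 3152 nt. Their median level after 3 min was higher, at 74.6 against 38.2 CPM. The part of level or transcript length in the span was not tested.

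**Figure D3:**
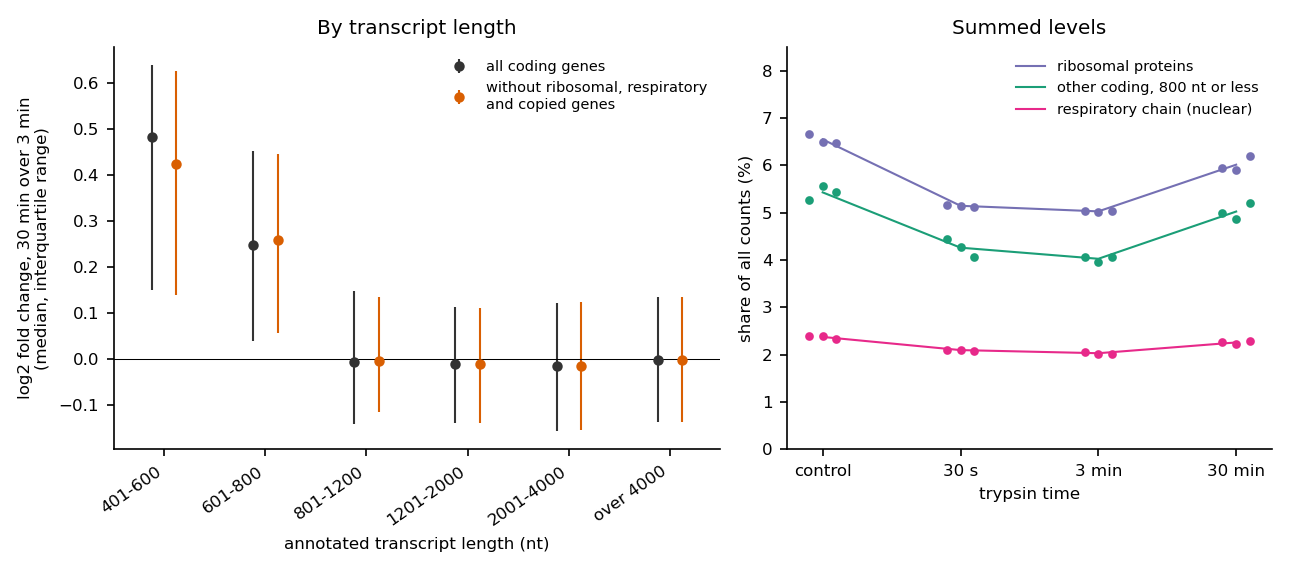
Left, median log2 fold change of 30 min over 3 min with its interquartile range (vertical axis) for coding genes by annotated transcript length in nt (horizontal axis), for all genes (black) and without ribosomal, respiratory and copied genes (orange); the classes over 400 and up to 800 nt lie above 0 and longer ones near 0, and the class of 400 nt or less, with 10 genes, is not drawn. Right, share of all counts in each library (points) with the mean of 3 (lines) for ribosomal protein, other short coding and respiratory chain genes in control cells and after 30 s, 3 min and 30 min.

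Among genes tied to actin and attachment, Ccn1, Actg1 and Acta2 fell and Tmsb4x rose. In the YAP list, 1 of 30 genes rose and 1 fell, 3.33% each, against 2.83% and 1.20% of all genes tested. The matricellular gene Ccn1, a target of YAP and SRF (chr3:145646976-145649981, - strand), was at 268, 233 and 270 CPM after 30 min, against 393, 419 and 402 CPM after 3 min. All 30 min libraries were lower, with a log2 fold change of -0.66 ± 0.07 (SE, edgeR adjusted p = 5.09e-11). Over the course its mean was 233 CPM in scraped cells, 418 CPM at 30 s, 405 CPM at 3 min and 257 CPM at 30 min. Ccn2, its close relative, was at 97.4, 72.9 and 95.2 CPM after 30 min, against 105, 101 and 108 CPM after 3 min (log2 -0.25 ± 0.11, edgeR adjusted p = 0.301). The gene of the YAP list that rose was Gadd45a, given above.

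Of 31 genes of the SRF and actin list 1 rose and 4 fell, 3.23% and 12.9%, against 2.83% and 1.20% of all genes tested. The median of -0.05 was 0.02 without 30 min replicate 1, and just above 0 without copied genes. Actg1, the cytoplasmic gamma-actin, was at 96.8, 99.6 and 86.4 CPM after 30 min, against 134, 148 and 134 CPM after 3 min (log2 -0.56 ± 0.11, edgeR adjusted p = 0.000197), and is copied. Mean Actg1 was lower still in scraped cells and at 30 s, at 71.8 and 69.5 CPM. Acta2, smooth muscle actin, was at 2940, 2996 and 3136 CPM after 30 min, against 3362, 3361 and 3514 CPM after 3 min, a small fall of 0.17 on the log2 scale (edgeR adjusted p = 0.00607; call lost in 2 of the 6 fits that left out a library). Tmsb4x, which sequesters actin monomers, rose to 1931, 1902 and 1988 CPM after 30 min, against 1538, 1591 and 1695 CPM after 3 min (log2 0.27 ± 0.04, edgeR adjusted p = 1.6e-05). None of these groups overlapped. In scraped cells Tmsb4x was at 2137 to 2204 CPM, above every 30 min library. Its transcript has 768 nt, and of tested coding genes with 800 nt or less 36.2% rose. The part of transcript length in the Tmsb4x rise was not tested. Pfn1, an actin-binding protein, spread widely, at 228, 1134 and 672 CPM after 30 min and 820, 2311 and 1104 CPM after 3 min. Its groups overlapped, and the edgeR adjusted p of 0.0075 became 0.452 without 3 min replicate 2. Of 24 adhesion genes Cd151, a tetraspanin that binds integrins, was the single call, with a rise of 0.28 (edgeR adjusted p = 0.019). That call was lost in 4 of the 6 fits that left out a library, with an edgeR adjusted p of up to 0.145. A single call is 4.17% of the adhesion list, against 2.83% called higher of all genes tested.

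In the list of pericellular proteolysis, 22 genes were tested and 2 were called, both lower, which is 9.09% against 1.20% of all genes tested. Serpinh1, the collagen chaperone, was at 576, 597 and 606 CPM after 30 min, against 688, 699 and 729 CPM after 3 min (log2 -0.25 ± 0.05, edgeR adjusted p = 0.000961). Plaur, the urokinase receptor, was at 22.6, 37.7 and 43.5 CPM after 30 min, against 53, 45.4 and 54.3 CPM after 3 min (log2 -0.54 ± 0.16, edgeR adjusted p = 0.0399), a call lost in 4 of the 6 fits that left out a library. The groups did not overlap in either gene. Of 39 matrix genes 3 were called, all higher, 7.69% against 2.83% of all genes tested. Col12a1, a fibril-associated collagen, was at 101, 77.6 and 76.3 CPM after 30 min, against 49.5, 47.0 and 47.6 CPM after 3 min (log2 0.82 ± 0.13, edgeR adjusted p = 7.42e-06). Its groups were well apart, while fibronectin, Fn1, rose by 0.17 and laminin alpha 5, Lama5, by 0.45, with calls lost in 5 and 3 of the 6 fits that left out a library. Lama5 averaged 57.8 CPM in scraped cells, 81.4 CPM at 30 s, 59.3 CPM at 3 min and 82.2 CPM at 30 min.

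Among metabolic and redox genes, Eno1 and Ftl1 fell and Txn1 and Insig1 rose. Eno1, a glycolytic enzyme, was at 148, 136 and 135 CPM after 30 min, against 263, 263 and 304 CPM after 3 min (log2 -0.99 ± 0.08, edgeR adjusted p = 7.56e-14), and was the single call among 26 glycolysis and hypoxia genes. Ftl1, the ferritin light chain that stores iron, was at 118, 111 and 87.0 CPM after 30 min, against 194, 214 and 239 CPM after 3 min (log2 -1.02 ± 0.10, edgeR adjusted p = 5.96e-12). Txn1, thioredoxin, was at 1742, 1793 and 1865 CPM after 30 min, against 1271, 1201 and 1232 CPM after 3 min (log2 0.54 ± 0.05, edgeR adjusted p = 1.8e-13). None of the groups overlapped, and all 3 genes are copied. In scraped cells and at 30 s, mean Eno1 was 334 and 200 CPM, mean Ftl1 261 and 160 CPM, and mean Txn1 1726 and 1327 CPM. In the redox and iron list, 28 genes were tested, 2 rose and 3 fell, 7.14% and 10.7%, against 2.83% and 1.20% of all genes tested. Insig1, which holds back sterol synthesis, was the single call of 27 cholesterol genes, at 109, 99.6 and 97.7 CPM after 30 min, against 62.4, 62.3 and 68.4 CPM after 3 min (log2 0.67 ± 0.13, edgeR adjusted p = 0.000207). Mean Insig1 was 71.1 CPM in scraped cells and 86.3 CPM at 30 s. The single calls were 3.7% of the cholesterol list, against 2.83% higher of all genes, and 3.85% of the glycolysis list, against 1.20% lower. Id3, an inhibitor of bHLH factors such as Myod1, was at 938, 861 and 882 CPM after 30 min, against 710, 722 and 708 CPM after 3 min (log2 0.32 ± 0.05, edgeR adjusted p = 1.32e-05). Its groups were apart, and its paralog Id1 had a log2 fold change of -0.20 and was not called.

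Of the myogenic genes Myf5, Mylpf and Chrnd rose, and of the cell cycle genes Kif11, Top2a and Rrm2 fell. The shares called higher were 6.67% of the myoblast identity list and 10% of the differentiation list, against 2.83% of all genes tested, and those called lower 3.77% of the G2/M list and 3.45% of the G1/S list, against 1.20%. Of 15 myoblast identity genes Myf5, a myogenic determination factor, was called, at 133, 107 and 129 CPM after 30 min, against 88.3, 103 and 83.8 CPM after 3 min (log2 0.41 ± 0.12, edgeR adjusted p = 0.0306), and the call was lost in 4 of the 6 fits that left out a library. Myod1 had a log2 fold change of -0.09 ± 0.13 (SE, edgeR adjusted p = 0.857). Of 20 muscle differentiation genes Mylpf and Chrnd rose by 0.54 and 1.03, with calls lost in 2 and 5 of those fits. Mylpf has a transcript of 766 nt and averaged 101 CPM in scraped cells, above its 82.6 CPM after 30 min. Of 53 G2/M genes Kif11 and Top2a, both needed in mitosis, fell by 0.50 and 0.25, with calls lost in 2 and 3 of those fits, and of 29 G1/S genes Rrm2, a subunit of ribonucleotide reductase, fell by 0.28 on the log2 scale. At an unadjusted p under 0.05, 13 of the 53 G2/M genes were lower and 2 higher. The G2/M genes together took 0.886% ± 0.010 of counts after 30 min, against 0.956% ± 0.010 after 3 min (SD, n = 3 each), and the groups did not overlap. Their mean share was 0.890% in scraped cells and 0.921% at 30 s. Of 35 proteasome genes Psmb5 and Psma4 fell, by 0.72 and 0.59. Both are copied, and the Psma4 call was lost in 4 of the 6 fits that left out a library. The 2 are 5.71% of the proteasome list, against 1.20% called lower of all genes tested. Of 13 circadian genes Bhlhe41 and Tef rose by 0.51 and 0.41, with calls lost in 1 and 4 of the 6 fits that left out a library. They are 15.4% of the circadian list, against 2.83% of all genes tested. Of 27 cold-response and splicing genes Rsrp1 rose by 0.61 and Srsf3 fell by 0.27, the Srsf3 call being lost in 2 of those fits. That is 3.7% each way, against 2.83% and 1.20% of all genes tested.

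**Figure D4:**
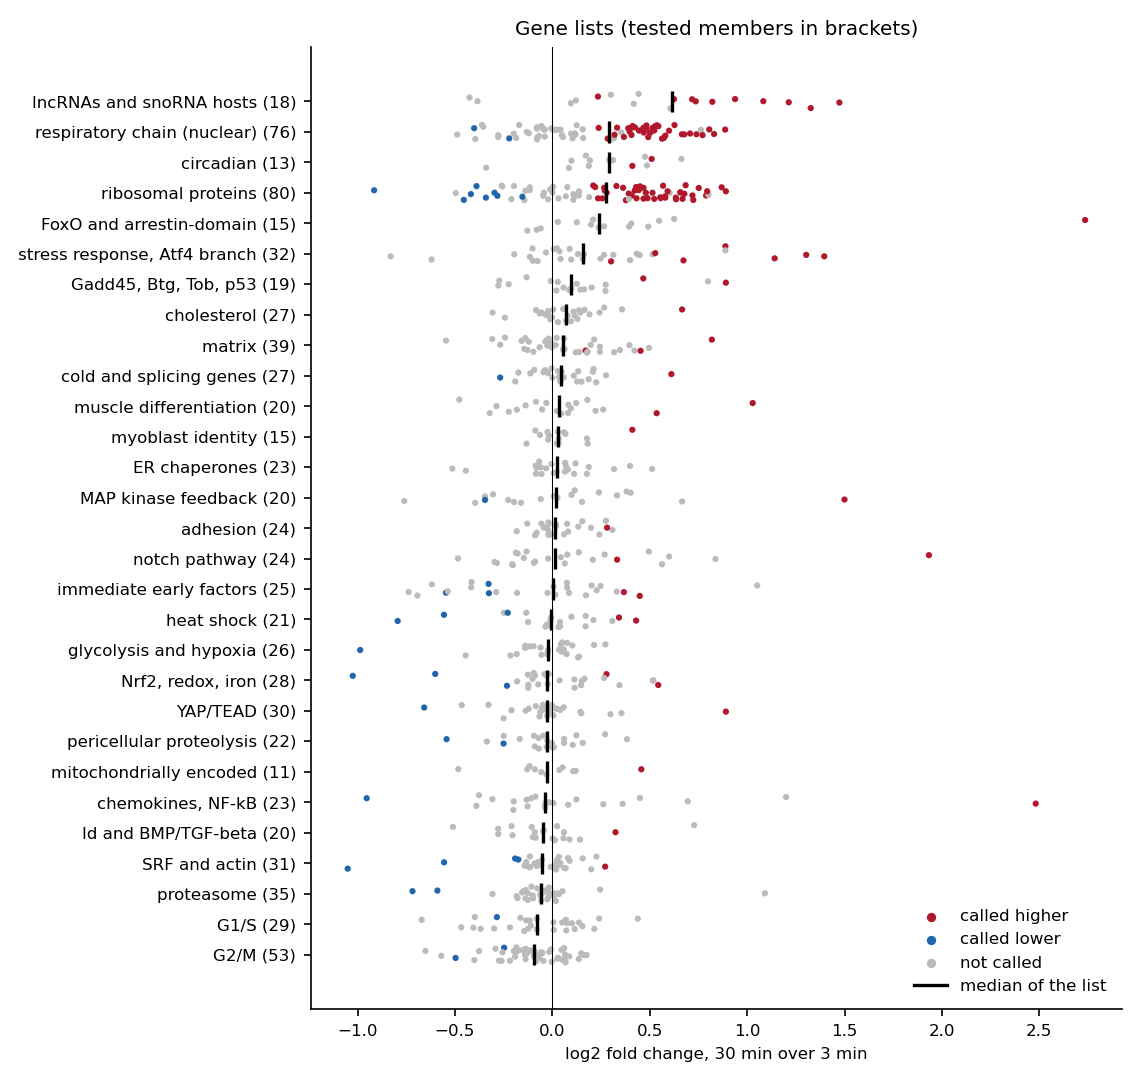
Log2 fold change of 30 min over 3 min (horizontal axis) for each tested member of 29 gene lists (rows, with the number tested). Red points are members called higher at 30 min, blue points members called lower, grey points the rest and black bars the median of a list; medians of the lncRNA, respiratory, circadian and ribosomal lists lie furthest to the right, and those of the cell cycle lists are slightly below 0.

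Outside the lists, the largest falls in genes with their own symbol included Kpna2, Bccip and Mir6236. Mir6236, an annotated microRNA gene, was at 66.0, 52.9 and 42.2 CPM after 30 min, against 91.9, 108 and 178 CPM after 3 min (log2 -1.21 ± 0.18, edgeR adjusted p = 1.73e-06). Mean Mir6236 was 135 CPM in scraped cells and 57.8 CPM at 30 s, so the 30 s level was near that of 30 min. Bccip, which binds BRCA2, was at 3.14, 3.15 and 4.41 CPM after 30 min, against 10.6, 12 and 8.04 CPM after 3 min (log2 -1.53 ± 0.40, edgeR adjusted p = 0.013). Kpna2, a nuclear import receptor with several copies, fell by 1.36 on the log2 scale (edgeR adjusted p = 0.0228). The groups did not overlap, which was a condition for being named among the largest falls. The calls of Bccip and Kpna2 were lost in 3 and 4 of the 6 fits that left out a library. Ppp1ca, a catalytic subunit of protein phosphatase 1, was at 42.7, 51.9 and 53.6 CPM after 30 min, against 78.3, 85.3 and 97.2 CPM after 3 min (log2 -0.81 ± 0.13, edgeR adjusted p = 5.37e-06). Mean Ppp1ca was 122 CPM in scraped cells and 74.1 CPM at 30 s. Hnrnpf, a splicing regulator, was at 26.4, 30.4 and 25.2 CPM after 30 min, against 55.4, 44.8 and 51.6 CPM after 3 min (log2 -0.87 ± 0.17, edgeR adjusted p = 0.000161), and is copied. Ereg, the EGF-family ligand epiregulin, was at 12.6, 15.2 and 13.2 CPM after 30 min, against 25.9, 21.3 and 26.8 CPM after 3 min (log2 -0.83 ± 0.22, edgeR adjusted p = 0.0149), with the call lost in 4 of those fits. Among rises outside the lists, Trit1, which modifies tRNAs, was at 32.1, 24.6 and 29.0 CPM after 30 min, against 16.5, 12.6 and 9.38 CPM after 3 min (log2 1.13 ± 0.23, edgeR adjusted p = 0.000451). Its groups did not overlap, as the choice of the largest rises required. Fam221b, Wdr6 and Tcim rose by 1.25, 1.19 and 1.13, with calls lost in 1, 4 and 4 of the 6 fits that left out a library. Fam221b averaged 14.5 CPM at 30 s, 7.57 CPM at 3 min and 17.7 CPM at 30 min. The means of Wdr6 at these times were 11.6, 5.55 and 13.0 CPM.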

How the data were processed

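Per the submitters' processing notes, reads were handled with HISAT2 2.1.0 and featureCounts 2.0.1 on GRCm38, beside UMI-tools 1.0.1, Trim Galore 0.6.6, cutadapt 2.6 and DESeq2 1.28.1. No source used here gives their settings, strand included. Counts per gene, in whole numbers, were deposited by the authors for 25957 genes and entered every test unchanged. In a deposited table named TPM, 467226 of 467226 values matched CPM from the counts (tolerance 1e-06), and it served that check alone.

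The main fit used edgeR 4.0.16 in R 4.3.3: filterByExpr by group, TMM scaling, all 18 libraries of 6 groups in a single fit without covariates, and the quasi-likelihood F test of 30 min against 3 min. Benjamini-Hochberg adjustment ran over 10075 genes. The common biological coefficient of variation was 6.08%. With 3 libraries a side the smallest two-sided exact permutation p is 0.1, so calls rest on the model. Within each group every pair of libraries differed beyond sampling noise (chi-square per degree of freedom 1.73 to 2.72 over 6 pairs). The script was tested on simulated counts before use.

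Named genes were the 15 largest called rises and falls without overlap and with a mean of at least 10 CPM, pseudogenes and predicted genes passed over, up to 8 called members of each of 30 lists, and 20 genes given always. Other list members, called or not, such as Jag1, Asns and Snhg17, were added by no fixed rule. Members and lists were chosen with earlier results of these data known. Gene positions, transcripts and lengths came from GENCODE M21 (GRCm38), which held all 25957 gene IDs; coordinates are 1-based. Copied genes matched another gene at 95% identity over at least 150 bases. Alternatives were DESeq2 1.42.0, other scalings and filters, the 6 libraries alone, a replicate block, each library left out, and fits without short, copied or length-related effects.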

Additional observations from a re-analysis of the deposited data

How the results depend on the processing

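Of 406 genes called, 285 rose and 121 fell. Restricting the test to coding transcripts over 800 nt gave 231, of which 145 rose, and leaving out copied genes gave 266, of which 70 fell; both tested fewer genes. Leaving out 1 library at a time gave 311 to 363 calls, 236 to 270 higher and 75 to 96 lower. Without 30 min replicate 1 there were 77 falls; there were 75 without 3 min replicate 1, and 76 when 3 min replicate 3 was dropped. All called genes kept their sign in every alternative in which they were tested. Library totals gave 260 higher and 176 lower, DESeq2 size factors 286 and 119, upper-quartile scaling 284 and 132, no filter 271 and 116, a minimum of 10 CPM 291 and 119, the 6 libraries alone 265 and 102, the length trend removed 233 and 121, and the DESeq2 Wald test 257 and 90. The respiratory median of 0.29 was 0.04 over longer transcripts and 0.13 with the length trend removed, and the ribosomal median of 0.27 was 0.12 without copied genes. The cause of the differences between settings was not tested. With the replicate block the counts were 282 and 122 over all libraries and 314 and 157 over the 6 libraries. Libraries with the same lot number correlated at 0.01 to 0.06 in their deviations from the group means, so the numbers were not taken to pair samples. Depth limits the test for genes near the floor of 1.59 to 2.01 CPM.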

Other observations

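The genes in these paragraphs were chosen after their values were seen. S100a4, which encodes a small calcium-binding protein, was at 3163, 2961 and 3262 CPM after 30 min, against 1684, 1514 and 1651 CPM after 3 min (log2 0.95 ± 0.06, edgeR adjusted p = 9.77e-19). S100a10, S100a6, S100a1 and S100a13 rose by 0.45, 0.40, 0.61 and 0.51, with edgeR adjusted p of 1.19e-10, 8.26e-08, 0.000552 and 0.00382. S100a3, S100a11 and S100a16 had log2 fold changes of 1.03, 0.21 and 0.01 and were not called. Lgals1, a secreted lectin, was at 11562, 10606 and 12567 CPM after 30 min, against 7878, 7619 and 8258 CPM after 3 min (log2 0.55 ± 0.04, edgeR adjusted p = 6.48e-15). All 6 genes that rose here have transcripts of 800 nt or less, a class in which 36.2% of tested coding genes rose. The part of transcript length was not tested for single genes.

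Psap, the precursor of the saposins, was at 101, 111 and 96.5 CPM after 30 min, against 172, 169 and 178 CPM after 3 min (log2 -0.75 ± 0.09, edgeR adjusted p = 1.94e-08). The lysosomal membrane protein gene Lamp1 was at 121, 110 and 99.0 CPM after 30 min, against 171, 164 and 170 CPM after 3 min (log2 -0.61 ± 0.09, edgeR adjusted p = 1.22e-06). M6pr, which carries enzymes to lysosomes, fell by 0.45 (edgeR adjusted p = 0.0137), a call lost in 4 of the 6 fits that left out a library. The kinase gene Pim3 was at 58.5, 51.9 and 64.3 CPM after 30 min, against 104, 92.4 and 95.8 CPM after 3 min (log2 -0.75 ± 0.12, edgeR adjusted p = 1.01e-05). The tetraspanin-like Tm4sf1 and the TWEAK receptor Tnfrsf12a fell by 0.31 and 0.24 on the log2 scale, with edgeR adjusted p of 9.91e-07 and 0.000615.

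The largest changes of all were in pseudogenes and ribosomal RNA. Gm13340, an unprocessed pseudogene with a close copy elsewhere, was at 202, 213 and 201 CPM after 30 min, against 9.42, 22.4 and 10.7 CPM after 3 min (log2 3.82 ± 0.18, edgeR adjusted p = 7.16e-23). Rps12-ps2, a processed pseudogene of Rps12, was at 43.4, 34.6 and 35.9 CPM after 30 min, while the 3 min libraries were under the floor at 0.59, 1.64 and 0 CPM. CT010467.1, annotated as ribosomal RNA, was at 111, 113 and 127 CPM after 30 min, against 338, 351 and 1019 CPM after 3 min (log2 -2.27 ± 0.23, edgeR adjusted p = 4.45e-11). The noncoding Gm26917 was at 61.6, 52.4 and 49.2 CPM after 30 min, against 139, 173 and 173 CPM after 3 min (log2 -1.57 ± 0.11, edgeR adjusted p = 2.31e-16). Reads of such genes cannot be told apart from those of close copies.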
